A study of Homo sapiens with 60 samples.

Results

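The comparison sets 3 libraries of A549 cells treated with Aucklandiae Radix water extract at 500 µg/mL against 3 libraries treated with the same extract at 20 µg/mL, 6 of the 60 libraries of the series, chosen by the treatment in their labels. A549 is an established human lung carcinoma cell line, and all cells were sampled after 24 h. The dose series and the second extract drew on 3 libraries of the same extract at 100 µg/mL and 9 of Polygalae Radix water extract, also at 500, 100 and 20 µg/mL with 3 libraries each. All 60 libraries, in 20 groups, serve for context and for 1 alternative fit: besides these, 12 groups of Liriopis, Schisandrae, Longan and Zizyphi water extracts at the same doses, 3 libraries of wortmannin, a PI3K inhibitor, at 10 µM, and 3 of the dimethyl sulfoxide vehicle. The vehicle is labelled 0.1%, while the design text gives 2%, so its content is uncertain. The 18 Aucklandiae and Polygalae libraries carry the same first number, 4, in their library names and are called set 4. The comparison contains no vehicle, so it gives the difference between a high and a low dose and not the effect of the extract. No Aucklandiae or Polygalae label gives a dimethyl sulfoxide level. By the series design text, extracts that inhibited the cells below 500 µg/mL were given at reduced doses. Every Aucklandiae and Polygalae library is nevertheless labelled 500, 100 or 20 µg/mL, and these doses are used. The design text also says that samples with too little RNA were left out by the authors. The labels do not say whether replicates were separate cultures. The p-values therefore rest on the spread between libraries alone, and part or all of it may be technical.

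Aucklandiae Radix is the dried root of Aucklandia lappa, a drug of East Asian medicine known for sesquiterpene lactones such as costunolide and dehydrocostus lactone, which can react with thiol groups of proteins. Thiol-reactive compounds typically release the transcription factor NRF2 from its inhibitor KEAP1, and NRF2 then raises genes of glutathione, thioredoxin and heme metabolism. A549 cells carry a KEAP1 mutation, so that NRF2 target genes are already high without treatment.

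Total counts were 22.6 to 29.6 M per library at 500 µg/mL and 20.6 to 29.5 M at 20 µg/mL, in a range of 17.7 to 30.6 M over the 60 libraries. Replicates of a dose correlated at 0.991 to 0.994 (Pearson, log2 values across genes, which are not independent replicates). No pair of replicates was close enough to be a copy, with a chi-square per degree of freedom of 2.24 to 3.71 over genes. Mitochondrial messenger RNA took 7.33 to 7.85% of counts at 500 µg/mL and 6.68 to 7.45% at 20 µg/mL. The keratins that mark A549 cells as epithelial were abundant, with means over the 9 Aucklandiae libraries of 3569 CPM for KRT8, 2630.1 CPM for KRT18 and 2236 CPM for KRT7. CPM are a gene's counts relative to the library total, scaled by TMM (a trimmed mean of log ratios); they are not scaled for gene length, so levels are compared between groups and not between genes.

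Of 15932 genes tested, 210 (1.32%) differed between 500 and 20 µg/mL at an adjusted p under 0.05 (edgeR quasi-likelihood test, Benjamini-Hochberg over all genes tested), of which 56 (0.351%) rose and 154 (0.967%) fell. At an unadjusted p under 0.05 there were 1694 genes. The differences were small. The median log2 fold change was 0.19 over the genes that rose and -0.21 over those that fell, against 0.00 over all genes tested. Only 9 of the 210 reached a 1.5-fold difference, 3 higher and 6 lower. In 209 of the 210 the libraries of the doses did not overlap, which 16.2% of all tested genes also met, 7.82% with the high dose above and 8.39% with it below. In a fit of all 18 set 4 libraries 46 genes passed, and 45 of them were among the 210. That fit lost the call of 43 of 76 passing genes chosen for description, among them BLVRB, SQSTM1, OSGIN1, GCLM, SELENOH, SELENOW, DIO2, SPARC, TAGLN, ANKRD1, FOSL2, DUSP1, CALR, PKM, SLC2A3, KRT8, FADS2, HMGCS1, NFKB2, ANGPTL4 and SFRP4. In these bulk samples, less RNA of a gene in every cell and fewer cells that express it cannot be told apart.

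**Figure D1:**
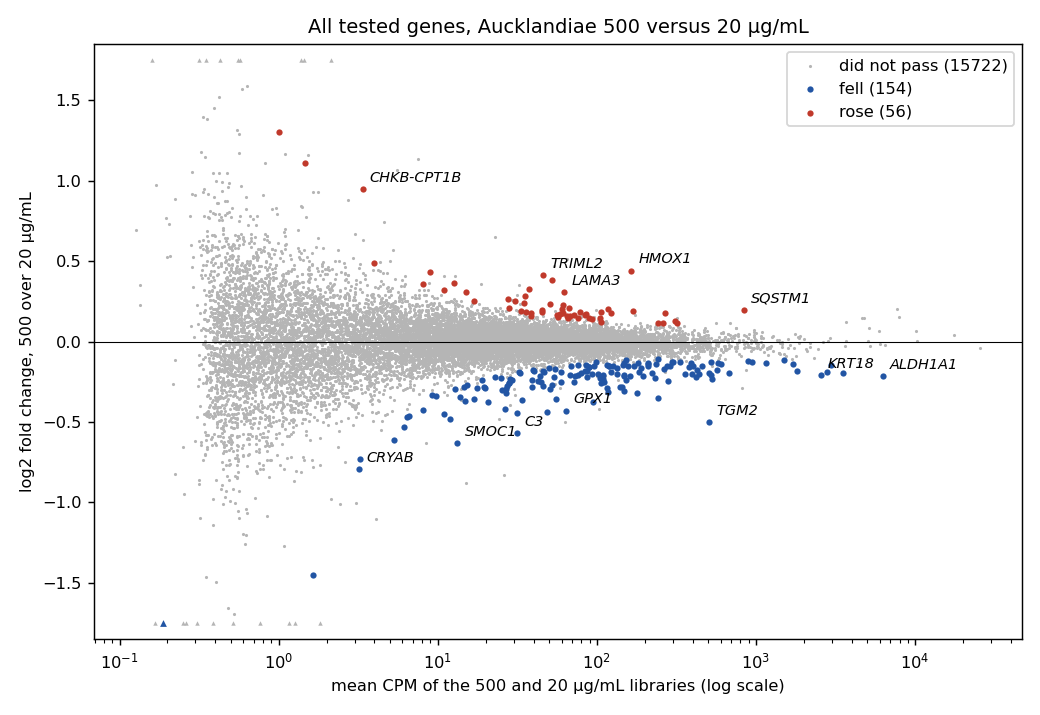
Log2 fold change of every tested gene, 500 over 20 µg/mL of Aucklandiae extract (vertical axis; triangles lie beyond the axis limits), against the mean CPM of the 6 libraries (horizontal axis, log scale). The 56 genes that rose (red) and the 154 that fell (blue) lie along the edge of the genes that did not pass (grey), with HMOX1 and TGM2 standing out among the abundant genes.

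The clearest rise was that of HMOX1 (ENSG00000100292, chr22:35380361-35394214 in GRCh38), which encodes heme oxygenase 1, the enzyme that opens heme into biliverdin, iron and carbon monoxide. HMOX1 had 192, 199 and 179 CPM at 500 µg/mL, against 144, 139 and 137 CPM at 20 µg/mL. All 3 high-dose libraries lay above all 3 low-dose libraries. The log2 fold change was 0.44 ± 0.04 (SE), a rise of 35.8%, with an edgeR adjusted p of 3.66e-08. The adjusted p ranged from 5.56e-37 to 0.0541 over 14 alternative fits, the highest in the fit of a straight slope over the dose steps, where the call was lost. BLVRB, biliverdin reductase B, rose with it, with 124, 127 and 125 CPM at 500 µg/mL against 108, 104 and 116 CPM at 20 µg/mL and no overlap (log2 fold change 0.20 ± 0.04, edgeR adjusted p 0.00146). These were the only members that passed among 16 heme and iron genes, whose median log2 fold change was 0.04. Of all tested genes, 0.351% rose and 0.967% fell, and neither this list nor any below was tested as a set. The ferritin chains that store iron had log2 fold changes of 0.12 for FTH1 (edgeR adjusted p 0.104) and 0.15 for FTL (edgeR adjusted p 0.432).

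Of 20 NRF2 genes of glutathione and thioredoxin metabolism, 2 rose and none fell, with a median log2 fold change of 0.02. The shares over all tested genes were 0.351% for rises and 0.967% for falls. OSGIN1, a stress-induced growth inhibitor, had 110.5, 121 and 108 CPM at 500 µg/mL, against 103, 97.6 and 99.1 CPM at 20 µg/mL. Its groups did not overlap (log2 fold change 0.18 ± 0.04, edgeR adjusted p 0.00843), and the call held in 10 of 14 alternative fits. GCLM, the regulatory subunit of the enzyme that makes the first step of glutathione synthesis, had 277, 267 and 267 CPM at 500 µg/mL, against 244, 257 and 249.2 CPM at 20 µg/mL. Again no high-dose library reached down to the low-dose range, but the difference was 8.21% and close to the threshold (edgeR adjusted p 0.0483), and it passed in 4 of 14 alternative fits. The quinone reductase gene NQO1 averaged 1602 CPM at 500 µg/mL and 1584 CPM at 20 µg/mL (edgeR adjusted p 0.912). The catalytic glutathione subunit GCLC had a log2 fold change of 0.10 (edgeR adjusted p 0.0891) and the cystine transporter SLC7A11 of -0.09 (edgeR adjusted p 0.236). Among 14 aldo-keto reductases and aldehyde dehydrogenases, which detoxify carbonyls, 1 fell and none rose. That member was ALDH1A1, which makes retinoic acid from retinal, with 5744, 5857 and 5818 CPM at 500 µg/mL against 6653, 6723 and 6862 CPM at 20 µg/mL (edgeR adjusted p 0.000171).

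Of 20 selenoprotein genes tested, 4 fell and none rose, with a median log2 fold change of -0.04. Over all tested genes 0.967% fell and 0.351% rose, and the list was not tested as a set. The 4 calls were lost in the fit of all 18 set 4 libraries. GPX1 (ENSG00000233276, chr3:49357171-49358600 in GRCh38), the cytosolic glutathione peroxidase that reduces hydrogen peroxide, had 53.6, 56.2 and 54.1 CPM at 500 µg/mL, against 72.6, 72.3 and 76.4 CPM at 20 µg/mL. The doses were well apart, and GPX1 fell by 25.8% (log2 fold change -0.43 ± 0.04, edgeR adjusted p 4.16e-08). In the fit of all 18 set 4 libraries the adjusted p was 0.0919, the highest of 14 alternatives that began at 8.36e-23. SELENOH and SELENOW, small thioredoxin-fold selenoproteins, had log2 fold changes of -0.28 (edgeR adjusted p 0.00185) and -0.25 (edgeR adjusted p 0.0012). The adjusted p of SELENOH ran from 9.79e-05 to 0.669 over its 14 alternatives. DIO2, the deiodinase that activates thyroid hormone, had a log2 fold change of -0.20 (edgeR adjusted p 0.00499). The phospholipid peroxidase gene GPX4 had a log2 fold change of 0.02 (edgeR adjusted p 0.932) and the thioredoxin reductase gene TXNRD1 of -0.06 (edgeR adjusted p 0.503).

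The fall with the smallest p was that of TGM2 (ENSG00000198959, chr20:38127387-38166578 in GRCh38), transglutaminase 2, which cross-links proteins of the matrix and the cytoplasm. TGM2 had 402, 429.7 and 423 CPM at 500 µg/mL, against 588, 598 and 593 CPM at 20 µg/mL. The gap between the doses was many times the spread within either of them. TGM2 fell by 29.4% (log2 fold change -0.50 ± 0.03, edgeR adjusted p 2.79e-11). Over 14 alternative fits the adjusted p ran from 8.44e-61 to 0.0525, and the call was lost in the fit of a straight slope over the dose steps.

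Laminins and integrins join epithelial cells to the basement membrane. Of 21 laminin, integrin and adhesion genes tested, 2 rose and 3 fell, with a median log2 fold change of -0.05. The log2 fold change was above 0 for 7 members and below 0 for 14. Among all tested genes 0.351% rose and 0.967% fell, and the list was not tested as a set. LAMA3, a laminin chain of the epithelial basement membrane, had 71.4, 68.8 and 67.2 CPM at 500 µg/mL, against 58.6, 55.6 and 52.8 CPM at 20 µg/mL, and rose without overlap (log2 fold change 0.31 ± 0.04, edgeR adjusted p 4.39e-05). LAMB3, a chain that pairs with it, had a log2 fold change of -0.10 (edgeR adjusted p 0.617). The LAMA3 call was lost in the fit of all 18 set 4 libraries (adjusted p 0.237, with 2.56e-11 the lowest of 14 alternatives). Both partners of the laminin receptor integrin α3β1 fell. ITGA3 fell by 13.1% (edgeR adjusted p 0.00016) and ITGB1 fell by 9.39% (edgeR adjusted p 0.00561). The ITGA3 call held in all 14 alternative fits. The ITGB1 call was lost in the fit of all 18 set 4 libraries (edgeR adjusted p 0.0971). ITGB5, a partner of integrin αv, rose with a log2 fold change of 0.11 (edgeR adjusted p 0.0274).

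Among 24 genes of YAP and TGF-beta signalling and of mesenchymal cells, 1 rose and 5 fell, with a median log2 fold change of -0.06. Over all tested genes 0.351% rose and 0.967% fell, and the list was not tested as a set. ANKRD1, a common YAP target, had 12.9, 10.8 and 12.5 CPM at 500 µg/mL, against 13.9, 16.1 and 16.0 CPM at 20 µg/mL (edgeR adjusted p 0.0124, held in 10 of 14 alternative fits). The matricellular protein gene SPARC had 22.04, 23.1 and 22.7 CPM at 500 µg/mL, against 28.6, 28.4 and 26.4 CPM at 20 µg/mL (edgeR adjusted p 0.00118). TAGLN, an actin-binding protein of contractile cells, fell by 16.5% (edgeR adjusted p 0.00491, from 0.000327 to 0.526 over 14 alternatives), and AMOTL2 and TGFBI had log2 fold changes of -0.13 and -0.14 (edgeR adjusted p 0.027 and 0.0233). The YAP targets CCN1 and CCN2 had log2 fold changes of 0.04 and 0.10, and the mesenchymal filament gene VIM of -0.01, and none of them passed. In the BMP list, 1 of 14 fell: BMPER, a secreted BMP-binding protein, with 4.15, 3.88 and 4.60 CPM at 500 µg/mL against 5.99, 6.87 and 6.47 CPM at 20 µg/mL (log2 fold change -0.61 ± 0.11, edgeR adjusted p 0.00185). The BMP target genes ID1, ID2 and ID3 had log2 fold changes of -0.10, -0.13 and -0.06 and did not pass.

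Of 24 complement and coagulation genes, 1 rose and 2 fell, with a median log2 fold change of -0.03. The shares over all tested genes were 0.351% for rises and 0.967% for falls. C3 (ENSG00000125730, chr19:6677704-6730562 in GRCh38), the central component on which all complement pathways converge, had 23.6, 24.4 and 28.1 CPM at 500 µg/mL, against 35.2, 37.2 and 40.8 CPM at 20 µg/mL. The doses did not overlap, and C3 fell by 32.7% (log2 fold change -0.57 ± 0.06, edgeR adjusted p 1.06e-05). In the fit of all 18 set 4 libraries its adjusted p was 0.0778, the highest of 14 alternatives that began at 1.51e-24. C1R, a protease that starts the classical pathway, fell by 18.3% (edgeR adjusted p 0.00311). The fibrinogen genes, which A549 cells express, did not pass: FGA, FGB and FGG had log2 fold changes of 0.10, -0.03 and -0.07.

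Of 16 NF-kB and chemokine genes tested, 1 rose and 1 fell, with a median log2 fold change of -0.03. Among all tested genes, 0.351% rose and 0.967% fell. CXCL5, a chemokine that draws neutrophils, had 39.0, 40.1 and 45.5 CPM at 500 µg/mL, against 56.3, 55.3 and 56.9 CPM at 20 µg/mL, and fell by 26.2% without overlap (edgeR adjusted p 1.16e-06). NFKB2, the precursor of the p52 subunit of NF-kB, had 53.8, 54.5 and 56.4 CPM at 500 µg/mL against 43.9, 45.9 and 51.1 CPM at 20 µg/mL (log2 fold change 0.23 ± 0.05, edgeR adjusted p 0.00425). The chemokines CXCL1 and CXCL8 had log2 fold changes of -0.68 and -0.61 with edgeR adjusted p of 0.314 and 0.427. Of 21 interferon-stimulated genes tested, none passed. The smallest p among them was that of PSMB9, an immunoproteasome subunit, with a log2 fold change of 0.32 (edgeR adjusted p 0.232).

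Feedback and early genes of the MAPK pathway, which report the activity of growth factor signalling, had 4 falls and no rise among 24, with a median log2 fold change of -0.10. Over all tested genes 0.967% fell and 0.351% rose, and the list was not tested as a set. DUSP4, a phosphatase that inactivates MAP kinases in the nucleus, had 134, 137 and 138 CPM at 500 µg/mL, against 156, 158 and 159.6 CPM at 20 µg/mL (edgeR adjusted p 0.000197). FOSL2, a subunit of the factor AP-1, had 123, 126 and 125 CPM at 500 µg/mL, against 138, 151 and 141 CPM at 20 µg/mL (edgeR adjusted p 0.000497). EREG, a ligand of the EGF receptor, had 115, 111 and 117 CPM at 500 µg/mL, against 134, 131 and 125 CPM at 20 µg/mL (edgeR adjusted p 0.00132). In all of these the high-dose libraries lay below the low-dose ones by a small share of the level. DUSP1 fell by 9.97% (edgeR adjusted p 0.012), a call held in 8 of 14 alternative fits. DUSP6 and SPRY4, other feedback genes, had log2 fold changes of -0.11 and -0.10 and did not pass (edgeR adjusted p 0.697 and 0.632). None of 15 receptor tyrosine kinase and PI3K feedback genes passed. The smallest p among them was that of the receptor gene AXL, with a log2 fold change of -0.12 (edgeR adjusted p 0.0821).

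Chaperones of the endoplasmic reticulum had 3 falls and no rise among 17, with a median log2 fold change of -0.07 and 16 members below 0. Over all tested genes 0.967% fell and 0.351% rose, and the median was 0.00. The list was not tested as a set, and the 3 calls were lost in the fit of all 18 set 4 libraries. CALR, a calcium-binding lectin chaperone, had 426, 453 and 427 CPM at 500 µg/mL, against 476, 495 and 482 CPM at 20 µg/mL (edgeR adjusted p 0.00456). HSP90B1 and DNAJC3 had log2 fold changes of -0.12 and -0.17 (edgeR adjusted p 0.0292 and 0.0358), calls that held in 7 and 5 of 14 alternative fits. Both calls were lost whenever 1 library at 500 or 20 µg/mL was left out. HSPA5, the main chaperone of this compartment, had a log2 fold change of -0.11 (edgeR adjusted p 0.1). Among 17 heat shock genes 1 fell. This was CRYAB, the small heat shock protein alpha B crystallin, with 2.07, 1.97 and 3.11 CPM at 500 µg/mL against 4.60, 3.59 and 3.94 CPM at 20 µg/mL. It had the largest fall among the genes above 2 CPM that passed (log2 fold change -0.79 ± 0.16, edgeR adjusted p 0.00622), but at this low level the call held in 8 of 13 alternative fits. The inducible chaperone gene HSPA1A had a log2 fold change of 0.15 (edgeR adjusted p 0.805). Of 23 targets of ATF4, the factor of the integrated stress response, 1 rose and 1 fell: PHGDH, the first enzyme of serine synthesis, by a log2 fold change of 0.16 (edgeR adjusted p 0.0442, held in 8 of 14 alternative fits), and the mTORC1 inhibitor DDIT4 by -0.16 (edgeR adjusted p 0.00293).

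Genes of lipid metabolism moved little. Of 15 PPAR and lipid-handling genes, 2 rose and none fell, where 0.351% of all tested genes rose and 0.967% fell. ANGPTL4, a secreted inhibitor of lipoprotein lipase, had 29.1, 31.3 and 30.2 CPM at 500 µg/mL, against 24.7, 24.4 and 26.6 CPM at 20 µg/mL, without overlap (log2 fold change 0.26 ± 0.05, edgeR adjusted p 0.0038). CPT1A, which lets fatty acids into mitochondria, had a log2 fold change of 0.15 (edgeR adjusted p 0.0254, held in 7 of 14 alternative fits). Of 24 cholesterol genes 1 fell, HMGCS1, with 169, 157 and 162 CPM at 500 µg/mL against 182, 185 and 177 CPM at 20 µg/mL (edgeR adjusted p 0.00754). Of 11 fatty acid synthesis genes 1 fell, the desaturase gene FADS2, by 11.5% (edgeR adjusted p 0.00053). ACACA, the rate-limiting enzyme of fatty acid synthesis, had a log2 fold change of -0.04 (edgeR adjusted p 0.715).

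SQSTM1, the autophagy receptor p62 and itself an NRF2 target, had 901, 910.3 and 890.2 CPM at 500 µg/mL, against 789, 785 and 780.1 CPM at 20 µg/mL. The high-dose libraries lay above the low-dose ones with little spread (log2 fold change 0.20 ± 0.03, edgeR adjusted p 0.00016), and the call held in 13 of 14 alternative fits. With GLA, the lysosomal alpha-galactosidase (log2 fold change 0.12, edgeR adjusted p 0.0463, held in 3 of 14 alternative fits), it made 2 rises among 22 autophagy and lysosome genes. Among 28 hypoxia and glycolysis genes 2 fell, with a median log2 fold change of -0.05 over the list. For these lists too, the shares over all tested genes were 0.351% for rises and 0.967% for falls. The glucose transporter gene SLC2A3 fell by 13.97% (edgeR adjusted p 0.0063) and the pyruvate kinase gene PKM fell by 9.58% (edgeR adjusted p 0.011). SLC30A1, which exports zinc, fell by 14.3% (edgeR adjusted p 0.000223), the 1 call among 6 genes of metallothioneins and zinc transport. No member passed among 24 DNA replication genes, 20 mitosis genes, 20 p53 targets, 10 AHR targets, 24 nuclear and 13 mitochondrial genes of oxidative phosphorylation, or 34 cytosolic ribosomal protein genes. Their medians lay between -0.03 for the AHR targets and 0.04 for the mitosis genes and the mitochondrially encoded genes. The member with the smallest p was CDC20 for mitosis (log2 fold change 0.11, edgeR adjusted p 0.133), BTG2 for the p53 targets (0.24, edgeR adjusted p 0.236) and CYP1A1 for the AHR targets (0.43, edgeR adjusted p 0.534). It was E2F1 for DNA replication (-0.14, edgeR adjusted p 0.271), COX5B and MT-CO2 for the nuclear and mitochondrial genes of oxidative phosphorylation (0.11 and 0.20, edgeR adjusted p 0.211 and 0.208) and RPL19 for the ribosomal proteins (0.07, edgeR adjusted p 0.6).

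**Figure D2:**
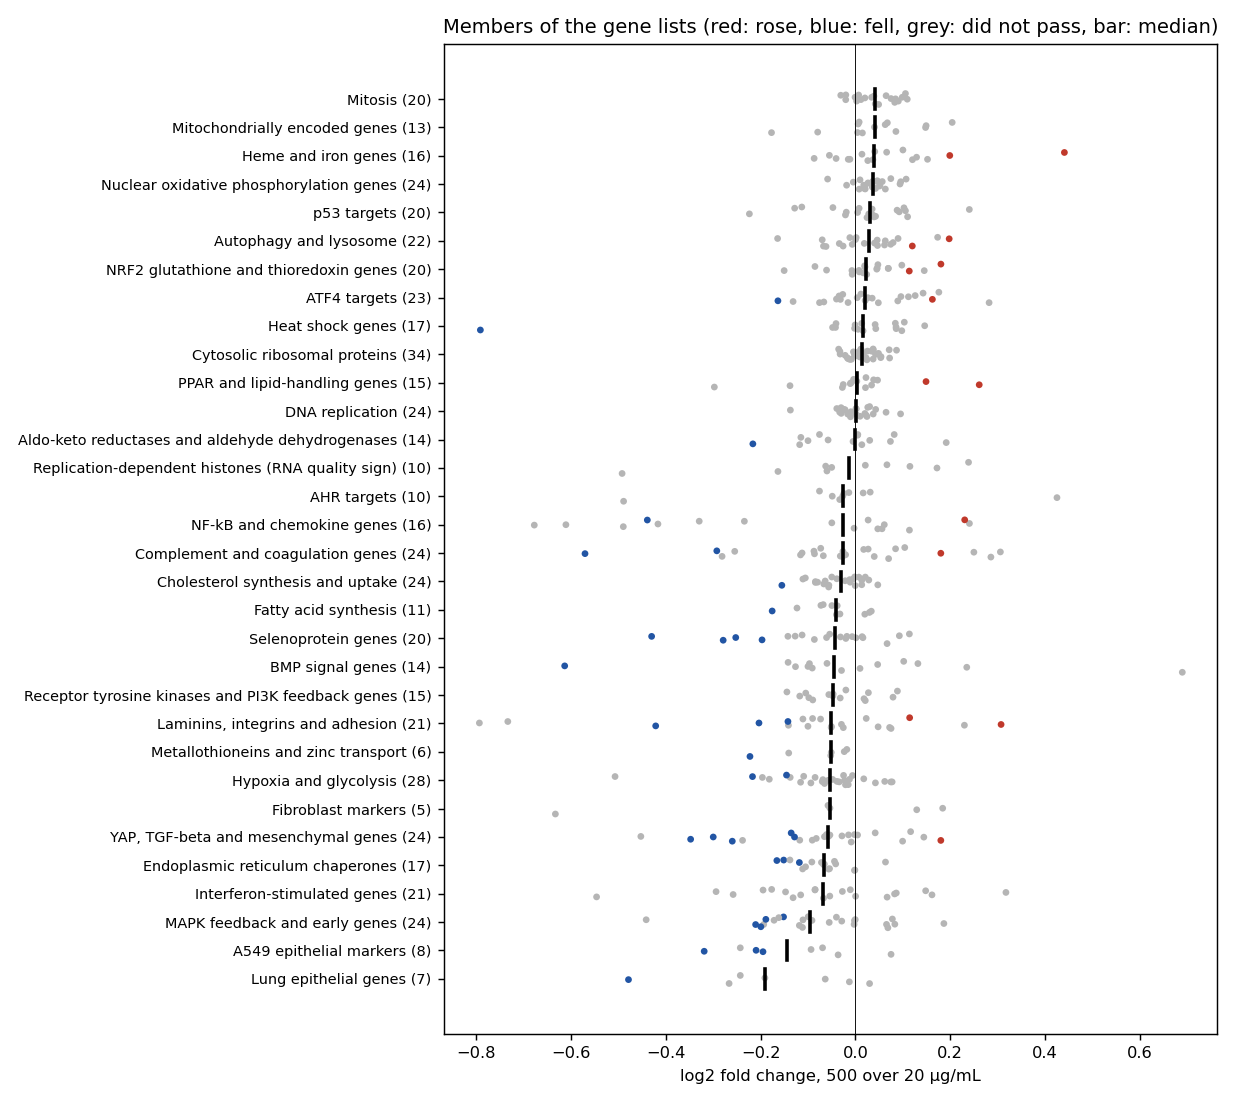
Log2 fold change, 500 over 20 µg/mL of Aucklandiae extract, of each tested member of the gene lists with at least 5 tested members (horizontal axis), with lists ordered by their median (black bar) and the number of tested members in parentheses. Members that rose are red, those that fell are blue and those that did not pass are grey; the list medians lie between 0.04 and -0.19, and the passing members are single genes or small groups within a list.

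Several of the largest differences lay outside the lists. Among the falls, RHCG, an ammonium transporter, had 2.32, 2.76 and 2.24 CPM at 500 µg/mL, against 3.96, 4.19 and 4.13 CPM at 20 µg/mL (edgeR adjusted p 0.00201). SMOC1, a calcium-binding protein of the extracellular matrix, had 9.11, 10.5 and 11.7 CPM at 500 µg/mL, against 15.3, 16.1 and 17.1 CPM at 20 µg/mL (log2 fold change -0.63 ± 0.08, edgeR adjusted p 1.06e-05). Neither gene had overlapping doses, and their calls held in all 13 and all 14 alternative fits. The membrane protein genes CDCP1, a substrate of Src kinases, and SUSD2 fell by 30.9% and 26.4% (edgeR adjusted p 0.00421 and 0.00299). The actin cross-linker gene FLNC fell by 26.7% (edgeR adjusted p 0.000628), a call lost in the fit of 18 libraries, where its adjusted p was 0.203 (lowest of 14 alternatives 2.99e-05). CCBE1, which takes part in the maturation of the lymphatic growth factor VEGF-C, and PSD4, an exchange factor for the small GTPase ARF6, had log2 fold changes of -0.47 and -0.46. Their edgeR adjusted p were 0.0141 and 0.0174, and each call held in 8 of 14 alternative fits.

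Among the rises, TRIML2, a member of the tripartite motif family, had 54.9, 53.04 and 50.02 CPM at 500 µg/mL, against 42.4, 38.1 and 37.7 CPM at 20 µg/mL (log2 fold change 0.41 ± 0.05, edgeR adjusted p 4.46e-06). GPRC5B, an orphan G-protein-coupled receptor, had 41.2, 41.3 and 42.5 CPM at 500 µg/mL, against 32.6, 36.3 and 30.7 CPM at 20 µg/mL (log2 fold change 0.33 ± 0.05, edgeR adjusted p 0.000193). PAM, the enzyme that amidates peptide hormones, had 13.95, 14.7 and 14.1 CPM at 500 µg/mL, against 11.6, 10.2 and 11.4 CPM at 20 µg/mL (edgeR adjusted p 0.00431). Each of these was higher in every high-dose library, and each call held in all 14 alternative fits. SFRP4, a secreted Wnt antagonist, rose by 34.9% (edgeR adjusted p 0.0132) and CASP6, an executioner caspase, by 24.7% (edgeR adjusted p 0.0358). CCDC113 and PDZD4 had log2 fold changes of 0.36 and 0.49 (edgeR adjusted p 0.028 and 0.0423). The calls held in 10 of 14 alternative fits for SFRP4, 6 of 14 for CASP6 and CCDC113, and 5 of 13 for PDZD4.

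The largest log2 fold change among the genes above 2 CPM that passed was 0.95 for CHKB-CPT1B, a readthrough transcript that spans 2 neighbouring genes, with 4.15, 4.39 and 4.82 CPM at 500 µg/mL against 2.67, 1.55 and 2.63 CPM at 20 µg/mL (edgeR adjusted p 0.00258). ANKHD1-EIF4EBP3, another readthrough transcript, had a log2 fold change of 0.38 (edgeR adjusted p 0.00156), while ANKHD1, with which it shares most of its exons, had one of -0.16 (edgeR adjusted p 0.0344). RSEM divides shared reads between such genes, so these values are uncertain. The 4 genes that passed with an average under 2 CPM were picked out after their values were seen. SERPINA3, a secreted protease inhibitor, had 2.07, 2.01 and 1.93 CPM at 500 µg/mL, against 1.05, 1.18 and 0.486 CPM at 20 µg/mL (edgeR adjusted p 0.0324). The antisense gene AC006027.1 and the gene AL163636.2 had log2 fold changes of 1.3 and -1.45 (edgeR adjusted p 0.00959 and 0.0248). PMS2P14, a pseudogene of a mismatch repair gene with near-identical copies, had no count in the 3 high-dose libraries and 0.377 ± 0.208 CPM at 20 µg/mL (SD, n = 3). With a floor of 3 counts per library this is at least 3.18-fold lower, from at most 15 counts in a low-dose library. TMEM160, a transmembrane protein gene given because an earlier look at these data singled it out, averaged 12.5 ± 1.56 CPM at 500 µg/mL and 13.1 ± 1.7 CPM at 20 µg/mL (SD, n = 3 each, edgeR adjusted p 0.932).

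Promoters of 4 of these genes are shown because they hold a letter match to a motif of factors named above. IL11, an interleukin-6 family cytokine taken in after its values were seen, had 18.1, 17.8 and 18.02 CPM at 500 µg/mL, against 25.1, 22.8 and 21.9 CPM at 20 µg/mL (log2 fold change -0.38 ± 0.06, edgeR adjusted p 0.000325). The windows run from 250 bases before to 50 bases after the start that RefSeq on GRCh38.p14 lists for the gene, each written 5′ to 3′ on the strand of its gene, with the matched letters in capitals. For LAMA3 and OSGIN1 this start lies inside the gene as GENCODE 29 bounds it, so these windows belong to an internal transcript start. The motifs were TGANTCA, the letters bound by AP-1, and TGACNNNGC, the core of the antioxidant response element bound by NRF2 with small MAF proteins, searched on both strands. They share their first 4 letters, TGAC, where the N of the AP-1 motif is C, so that 1 stretch can match both.
GCLM promoter, chr1:93909381-93909680, minus strand: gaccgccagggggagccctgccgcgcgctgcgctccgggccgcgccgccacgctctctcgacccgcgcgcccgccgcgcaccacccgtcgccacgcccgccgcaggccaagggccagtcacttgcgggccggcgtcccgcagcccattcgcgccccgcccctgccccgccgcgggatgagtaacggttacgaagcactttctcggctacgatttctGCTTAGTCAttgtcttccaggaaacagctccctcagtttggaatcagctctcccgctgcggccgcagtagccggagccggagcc
OSGIN1 promoter, chr16:83952990-83953289, plus strand: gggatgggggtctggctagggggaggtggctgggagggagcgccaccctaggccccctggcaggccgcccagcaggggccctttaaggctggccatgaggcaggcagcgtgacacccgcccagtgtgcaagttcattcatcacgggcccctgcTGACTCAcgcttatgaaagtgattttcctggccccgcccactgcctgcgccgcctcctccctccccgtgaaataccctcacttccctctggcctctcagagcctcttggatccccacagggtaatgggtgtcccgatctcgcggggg
LAMA3 promoter, chr18:23872770-23873069, plus strand: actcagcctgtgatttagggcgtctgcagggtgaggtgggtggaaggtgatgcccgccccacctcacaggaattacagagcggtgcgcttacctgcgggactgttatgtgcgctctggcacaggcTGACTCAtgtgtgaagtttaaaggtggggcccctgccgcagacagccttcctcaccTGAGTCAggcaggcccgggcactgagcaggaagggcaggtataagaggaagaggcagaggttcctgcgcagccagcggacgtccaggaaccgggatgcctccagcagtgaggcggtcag
IL11 promoter, chr19:55370414-55370713, minus strand: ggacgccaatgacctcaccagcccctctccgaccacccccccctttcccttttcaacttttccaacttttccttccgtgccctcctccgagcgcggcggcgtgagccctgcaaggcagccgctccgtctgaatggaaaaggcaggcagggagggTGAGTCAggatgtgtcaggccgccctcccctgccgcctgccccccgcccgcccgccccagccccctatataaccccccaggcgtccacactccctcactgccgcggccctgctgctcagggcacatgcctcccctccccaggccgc
The GCLM match is to TGACNNNGC on the opposite strand of the window. The other matches are to TGANTCA, 2 of them in LAMA3, which rose, and 1 in IL11, which fell. A window was in the table for 46 of the 56 genes that rose and 106 of the 154 that fell. TGANTCA was found in 3 of the 46 (6.52%) and 8 of the 106 (7.55%), against 4.65% of 11280 windows of tested genes and 7.76% of all 27305 windows. TGACNNNGC was found in 7 of the 46 (15.2%) and 18 of the 106 (17%), against 15.1% of the windows of tested genes and 13.6% of all windows. The matches are letters in a sequence and do not show that a factor binds there.

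The libraries at 100 µg/mL divide the dose range into a lower and an upper step. Counts of calls in each step do not test whether the steps differ. That difference passed for 1 of 15932 genes, so for the others the place of the change is not settled. Between 100 and 20 µg/mL no gene passed (edgeR quasi-likelihood test), with 1116 genes at an unadjusted p under 0.05 and 7 genes past the threshold in DESeq2. Between 500 and 100 µg/mL, 107 of 15932 genes passed (0.672%), 23 (0.144%) higher and 84 (0.527%) lower. These comparisons share libraries with the main one. Of the genes that passed between 500 and 20 µg/mL, 15 of the 56 rises and 71 of the 154 falls also passed between 500 and 100 µg/mL. Over the 56 rises the median log2 fold change was 0.07 for 100 over 20 µg/mL and 0.13 for 500 over 100 µg/mL. Over the 154 falls these medians were -0.06 and -0.15. The mean at 100 µg/mL lay between the means of the other doses in 187 of the 210 (89.0%), against 37.0% of all tested genes. This share is affected by the choice of the 210 for a difference between the outer doses.

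TGM2 averaged 593 ± 5.00 CPM at 20 µg/mL, 569 ± 13.8 CPM at 100 µg/mL and 418 ± 14.3 CPM at 500 µg/mL (SD, n = 3 each). Its upper dose step exceeded its lower one by -0.38 in log2 fold change, and it was the only gene (0.00628% of those tested) for which this difference of steps passed (edgeR adjusted p 0.000998). DESeq2 called 11 genes in this test, 1051 had an unadjusted p under 0.05, and the count was 0 without replicate 2 at 100 µg/mL. HMOX1 had a similar shape, with 140.0 ± 3.66 CPM at 20 µg/mL, 145 ± 4.42 CPM at 100 µg/mL and 190.1 ± 10.3 CPM at 500 µg/mL (difference of steps 0.34, edgeR adjusted p 0.0569). GPRC5B averaged 33.2, 33.3 and 41.7 CPM at 20, 100 and 500 µg/mL, with nearly all of its difference of means in the upper step. Its difference of steps, 0.31, did not pass (edgeR adjusted p 0.446). GPX1 averaged 73.8, 67.3 and 54.7 CPM at these doses and C3 averaged 37.8, 31.9 and 25.4 CPM. For both genes the mean at 100 µg/mL lay between the other means, but the lower step did not pass (edgeR adjusted p 0.44 and 0.414). CASP6, with 9.70, 11.8 and 12.1 CPM, had most of its difference of means in the lower step, which did not pass either (edgeR adjusted p 0.44). Nor did its difference of steps, -0.25 (edgeR adjusted p 0.786).

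**Figure D3:**
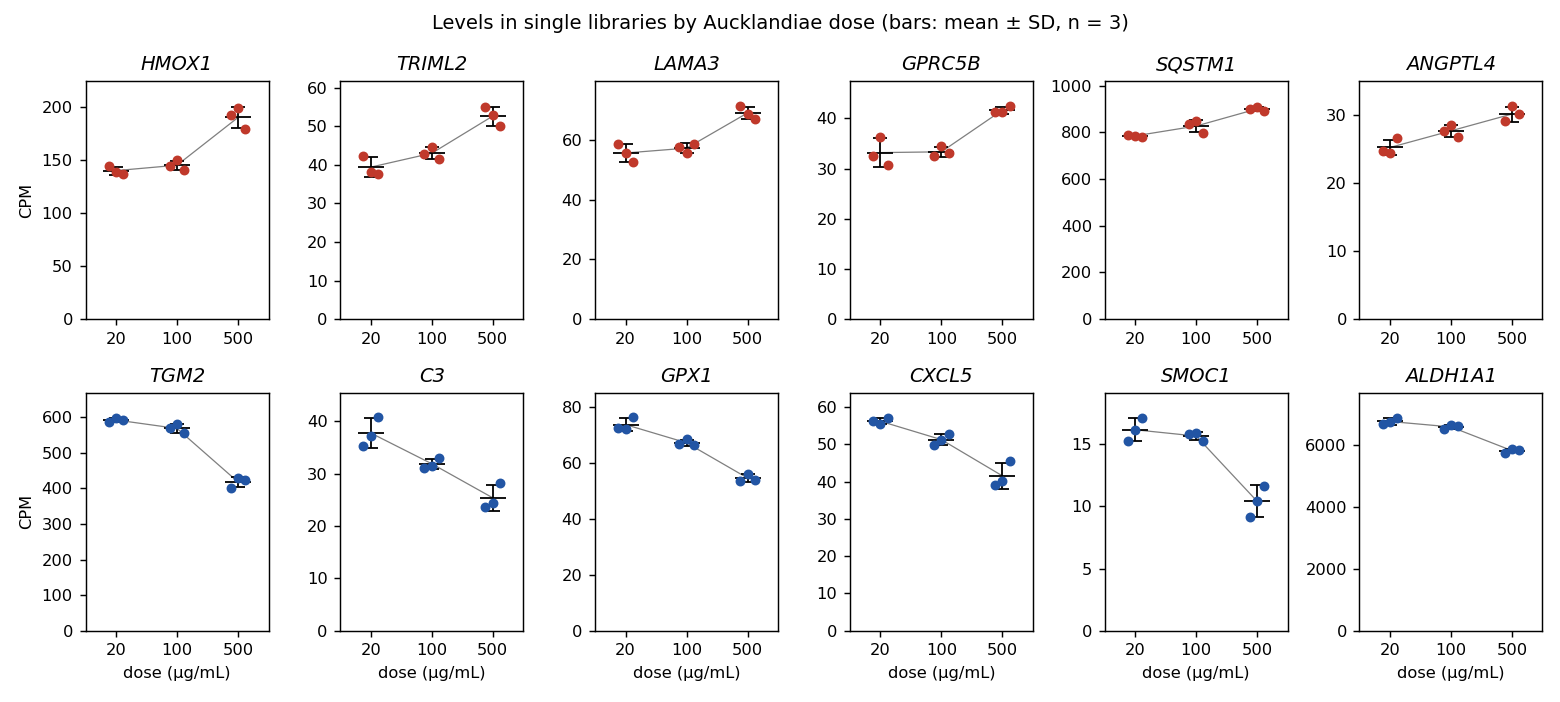
CPM of 12 genes in each Aucklandiae library (points, vertical axes from 0) at 20, 100 and 500 µg/mL (horizontal axes), with mean and SD of 3 libraries and a line through the means. HMOX1, TRIML2, LAMA3, GPRC5B, SQSTM1 and ANGPTL4 (red) are highest and TGM2, C3, GPX1, CXCL5, SMOC1 and ALDH1A1 (blue) lowest at 500 µg/mL, and TGM2 stays near its low-dose level at 100 µg/mL with 569 against 593 CPM.

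Some markers of cell identity differed between 500 and 20 µg/mL. Of 8 epithelial markers of A549 cells 3 fell and none rose, with a median log2 fold change of -0.14. Over all tested genes 0.967% fell and 0.351% rose. KRT18 had 2368, 2369 and 2388 CPM at 500 µg/mL, against 2633, 2768 and 2839.6 CPM at 20 µg/mL (edgeR adjusted p 0.000245), and KRT8 and KRT19 had log2 fold changes of -0.19 and -0.32 (edgeR adjusted p 0.00165 and 0.000628). KRT8 and KRT18 have many processed pseudogenes, with which RSEM may divide their reads. KRT7, CDH1 and EPCAM had log2 fold changes of -0.04, 0.08 and -0.09 and did not pass. The summed level of the 8 markers was 7814 to 8130.0 CPM at 500 µg/mL and 8443 to 9063 CPM at 20 µg/mL. At 100 µg/mL it was 8830 to 9010 CPM, inside the range at 20 µg/mL. The part of this sum in the other results was not tested. Of 7 lung epithelial genes tested, 1 fell, the tetraspan membrane protein gene TM4SF4, with 9.72, 9.29 and 10.9 CPM at 500 µg/mL against 13.3, 13.6 and 14.8 CPM at 20 µg/mL (edgeR adjusted p 0.000497). None of 5 fibroblast markers and 2 blood cell markers tested passed. PDGFRA and CD68 had the smallest p of each list, with log2 fold changes of -0.63 and -0.34 (edgeR adjusted p 0.596 and 0.0648). The sum over all fibroblast markers was 41.5 to 44.9 CPM at 500 µg/mL and 41.2 to 47.1 CPM at 20 µg/mL. The endothelial sum was 0.285 to 0.409 CPM at 500 µg/mL and 0.243 to 0.319 CPM at 20 µg/mL, with EMCN at 0. The blood cell sum was 10.2 to 12.3 CPM at 500 µg/mL and 13.0 to 14.2 CPM at 20 µg/mL, most of it CD68, which also occurs in lysosomes of other cells, with CD3E and MS4A1 at 0. Replication-dependent histone genes, which show whether RNA without poly(A) tails was captured, summed to 41.5 to 46.5 CPM at 500 µg/mL and 42.9 to 46.7 CPM at 20 µg/mL, and none of 10 tested passed.

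Polygalae Radix extract, the dried root of Polygala tenuifolia, was given at the same doses in the same library set, so its difference between 500 and 20 µg/mL can be set against that of Aucklandiae. The difference between the extracts passed for 784 of 16360 genes (4.79%), 261 (1.60%) higher and 523 (3.20%) lower with Aucklandiae relative to Polygalae (edgeR quasi-likelihood interaction test, 18 libraries). The count was 1210 without replicate 1 and 1217 without replicate 3 of Polygalae at 20 µg/mL. The genes that rose with Aucklandiae had a median log2 fold change of 0.00 with Polygalae, 29 above 0 and 27 below. Those that fell had a median of -0.04, 61 above 0 and 93 below, against -0.01 over all tested genes. The difference between extracts passed for 19 of the 56 rises and 54 of the 154 falls, a share affected by the choice of these genes in the same Aucklandiae libraries.

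Some genes had opposite signs with the extracts. CXCL5 had a log2 fold change of -0.44 ± 0.06 with Aucklandiae and 0.51 ± 0.06 with Polygalae (interaction -0.95 ± 0.09, edgeR adjusted p 2.96e-07). RHCG had -0.74 ± 0.14 with Aucklandiae and 0.88 ± 0.13 with Polygalae (edgeR adjusted p 6.75e-06). HMGCS1 had -0.16 ± 0.04 with Aucklandiae and 0.89 ± 0.04 with Polygalae (edgeR adjusted p 1.95e-10). CRYAB, CDCP1, FADS2 and DUSP4 were likewise lower at the high dose of Aucklandiae and had a positive log2 fold change with Polygalae. In the other direction, ANGPTL4 had 0.26 ± 0.07 with Aucklandiae and -0.69 ± 0.08 with Polygalae (edgeR adjusted p 2.93e-06), and PHGDH, SFRP4 and TRIML2 also had opposite signs. TGM2 was negative with both, at -0.50 ± 0.04 with Aucklandiae and -0.21 ± 0.04 with Polygalae, and the difference passed (edgeR adjusted p 0.00406). SQSTM1 was positive with both, at 0.20 ± 0.04 with Aucklandiae and 0.79 ± 0.04 with Polygalae (edgeR adjusted p 1.05e-06).

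For HMOX1 the log2 fold changes were 0.44 ± 0.05 with Aucklandiae and 0.63 ± 0.05 with Polygalae, with a difference of -0.20 ± 0.07 that did not pass (edgeR adjusted p 0.124). LAMA3, SMOC1, GPX1 and C3 also had the same sign with both extracts and a difference that did not pass. Their values with Polygalae were 0.25 ± 0.09, -0.40 ± 0.08, -0.18 ± 0.10 and -0.24 ± 0.13. No test of the Polygalae doses alone is given, so a shared sign is not shown to be a shared response. The largest differences between the extracts were at genes that differed little between the Aucklandiae doses. RRAGD, a GTPase that controls mTORC1 at lysosomes, had a log2 fold change of 0.07 ± 0.17 with Aucklandiae and 1.99 ± 0.14 with Polygalae. UAP1L1, HSD17B14 and the brain-type aldolase gene ALDOC had values of -0.03, -0.14 and 0.08 with Aucklandiae and of 1.83, 1.5 and 1.93 with Polygalae. CLDN4, a claudin of tight junctions, had 0.01 with Aucklandiae and -0.98 with Polygalae, and SULT2B1, a sterol sulfotransferase, had 0.11 with Aucklandiae and -0.88 with Polygalae. The differences of all of these passed.

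**Figure D4:**
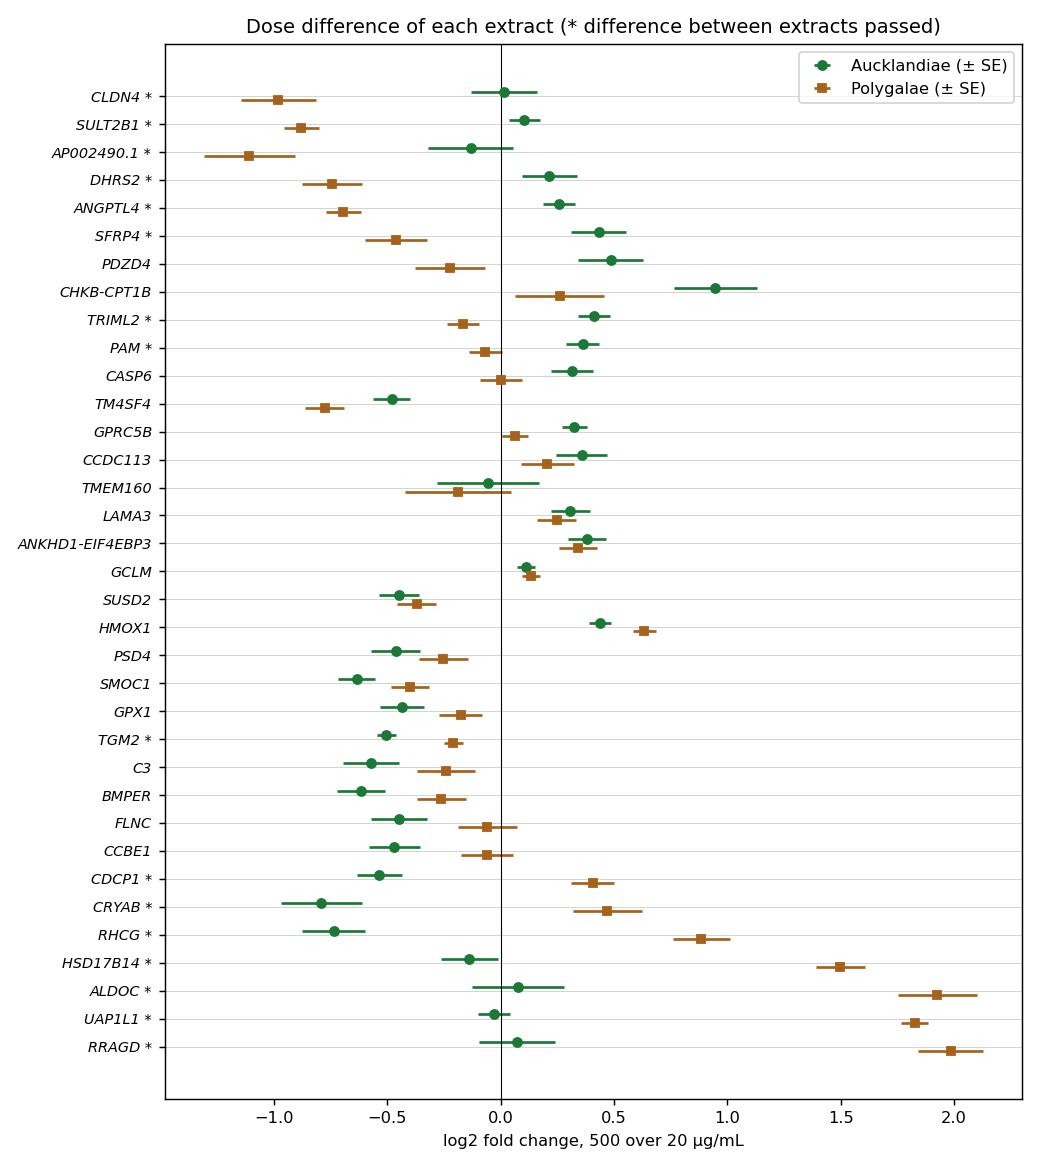
Log2 fold change of 500 over 20 µg/mL with SE for Aucklandiae extract (green circles) and Polygalae extract (brown squares), from the 18 libraries of set 4. Genes are ordered by the difference between the extracts, an asterisk marks a difference with an adjusted p under 0.05, and the signs are opposite for RHCG (-0.74 with Aucklandiae and 0.88 with Polygalae), CRYAB, CDCP1, ANGPTL4 and SFRP4.

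Against the 20 groups of the series, each scaled with all 60 libraries, the high Aucklandiae dose held an end position for many of the genes with the largest differences. These genes were chosen for a difference of this same group from 20 µg/mL, which favours such a position. Over all 17368 genes of the 60-library table it had the lowest mean for 4.45% and the highest for 3.94%. It had the lowest mean of the 20 groups for CRYAB, RHCG, SMOC1, BMPER, C3, CDCP1, TGM2, CCBE1, PSD4, FLNC, SUSD2 and GPX1. On this scale TGM2 averaged 413 CPM at 500 µg/mL and 585 CPM at 20 µg/mL of Aucklandiae, and 582 ± 11.5 CPM in the vehicle (SD, n = 3). It had the highest mean for CHKB-CPT1B, PDZD4, SFRP4, TRIML2, GPRC5B, CASP6, LAMA3 and ANGPTL4. HMOX1 averaged 188 CPM at 500 µg/mL and 138 CPM at 20 µg/mL, and 145 ± 2.37 CPM in the vehicle, and 2 other groups were higher, among them Polygalae at 500 µg/mL with 240.1 CPM. GPX1 averaged 54.0 CPM at 500 µg/mL and 72.9 CPM at 20 µg/mL, and 80.6 ± 0.720 CPM in the vehicle. The vehicle was not part of set 4, so that what set and treatment contribute cannot be told apart in these positions, which are given with no test.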

How the data were processed

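Messenger RNA libraries of A549 cells were made with a strand-specific kit from RNA with an integrity number above a set minimum and read from both ends over 100 bases, per the labels. The deposited table holds expected counts per gene, made by the authors with RSEM 1.3.3 after STAR 2.7.3a, Trim Galore 0.6.5 and FastQC 0.11.9 on GRCh38, per the submitters' processing notes. An expected count is an estimate that need not be whole, and reads that fit several genes are divided between them. Of the deposited values 10.7% were not whole, and all were rounded. Which annotation release and strand option RSEM used is not given in the sources used here. Values of antisense genes, readthrough genes, paralogs and pseudogenes are uncertain for that reason. The table lists 60675 genes; symbols came from a reference gene table for 41209 and from GENCODE 29 for 15846, while 3620 have no symbol. Gene positions are from GENCODE 29 on GRCh38.

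The 9 Aucklandiae libraries were fitted with edgeR 4.0.16 in R 4.3.3 (filterByExpr over the 3 doses, TMM factors of 0.982 to 1.02, robust quasi-likelihood fit, 1 mean per dose, 6 residual degrees of freedom). Tests were two-sided with Benjamini-Hochberg adjustment over 15932 genes. The 100 µg/mL libraries enter the fit for their share of the spread. The difference between Aucklandiae and Polygalae was tested as an interaction in the 18 libraries of set 4. Errors of log2 fold changes are given as standard errors (SE). Each was worked back from the test, as the absolute log2 fold change divided by the square root of its quasi-likelihood F statistic. Levels are CPM with TMM-scaled depth. Alternatives were RLE size factors, no filter on low counts, DESeq2 1.42.0, a replicate block, fits of 6, 18 and all 60 libraries, a slope over the dose steps, and leaving out each library; scripts were tested on simulated data.

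The comparison, the 34 gene lists, the panel (HMOX1, GPX1, C3, ANGPTL4, GCLM, TMEM160) and the tests were chosen with earlier results of these data known. Lists are described by counts and medians, with no set test. Genes named are the 12 largest rises and falls that passed with an average of at least 2 CPM and doses that did not overlap, up to 4 passing members of each list with the smallest p (or the 1 with the smallest p where none passed), the 4 largest differences from Polygalae in each direction, and the panel. Some genes that this rule names are not reported here, but they stay in the counts and medians. Other list members are given as values for context. The difference of dose steps, IL11, the 12 further genes with the smallest p and other genes said to be picked after seeing values were added later.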

Additional observations from a re-analysis of the deposited data

Results flagged for a closer look

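For the genes below the difference between 500 and 20 µg/mL was not the same with Aucklandiae as with Polygalae: the interaction of the 18 libraries of set 4 passed (edgeR quasi-likelihood test, Benjamini-Hochberg over 16360 genes). Values are Aucklandiae minus Polygalae in log2 fold change. Of all tested genes 4.79% passed this test.

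Among genes that passed between the Aucklandiae doses, the difference was negative for RHCG (-1.62), CRYAB (-1.26), HMGCS1 (-1.05), CXCL5 (-0.95), CDCP1 (-0.94), FADS2 (-0.73), SQSTM1 (-0.59), DUSP4 (-0.56), SLC2A3 (-0.56), ANKRD1 (-0.52), FOSL2 (-0.43), EREG (-0.32), KRT19 (-0.30), TGM2 (-0.30), SLC30A1 (-0.27), ITGA3 (-0.24) and ITGB1 (-0.18). It was positive for ANGPTL4 (0.95), SFRP4 (0.89), PHGDH (0.75), TRIML2 (0.58) and PAM (0.43).

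Of the genes added after their values were seen, the difference was -0.64 for the sulfate transporter gene SLC26A2, -0.54 for NAMPT, which recycles nicotinamide into NAD, and -0.40 for the hyaluronan receptor gene CD44. It was -0.37 for PHLDB2, -0.35 for the thrombomodulin gene THBD, -0.18 for TSPAN14 and 0.57 for IL11.

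Among named genes that did not pass between the Aucklandiae doses, the differences were -1.91 for RRAGD, -1.85 for UAP1L1, -1.85 for ALDOC, -1.64 for HSD17B14 and -1.62 for the lysosomal glycoprotein gene CD68. In the positive direction they were 0.99 for CLDN4, 0.98 for SULT2B1, 0.98 for AP002490.1, 0.96 for DHRS2, 0.68 for PSMB9 and 0.31 for CDC20.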

How the results depend on the processing

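Of 76 passing genes, 63 chosen by the naming rule and 13 added after their values were seen for a small p or as IL11, each kept its direction in every alternative run. Calls lost numbered 0 with the replicate block and with no filter on low counts, 1 with RLE size factors, 8 of 72 with DESeq2, 9 with all 60 libraries, 2 with the 6 compared libraries, 14 with the dose slope and 43 with the 18 libraries of set 4. They numbered 15, 18 and 12 without replicate 1, 2 and 3 at 500 µg/mL, and 14, 8 and 16 without replicate 1, 2 and 3 at 20 µg/mL. GCLM, GLA, CASP6, CCDC113, PDZD4, DNAJC3 and HSP90B1 were each lost in several of these. CALR was lost without replicate 1 and without replicate 3 at 500 µg/mL. The count of 210 became 342 with no filter, 343 with the block and 46 with the 18 libraries, of which 45 were among the 210, and 140 to 173 when a library was left out. For 500 over 100 µg/mL, 107 became 203 with no filter, 188 with the block and 71 with all 60 libraries. It was 38 to 83 with a library left out, 38 without replicate 1, 66 without replicate 2 and 66 without replicate 3 at 500 µg/mL, and 68 without replicate 1 and 56 without replicate 2 at 100 µg/mL. For 100 over 20 µg/mL, 0 became 64 with no filter, 7 with DESeq2, 18 with the block and 0 to 2 with a library left out. For the difference of dose steps, 1 became 73 with no filter, 11 with DESeq2, 25 with the block and 0 to 5 with a library left out. For the difference from Polygalae, 784 became 1203 with no filter, 1582 with all 60 libraries, 841 with the block and 532 to 1217 with a library left out. The cause of these changes was not tested. With no filter, 31163 genes were tested in the 9 libraries. The replicate numbers are not stated to pair samples, and deviations of equal numbers correlated at -0.0211 to 0.122; in 6 of 6 libraries of the outer doses the best partner in the other dose had the same number, a hint from the data only.

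The log2 fold change of 7 genes that did not pass changed sign when 1 library was left out. Its range over all alternative fits is given for AP002490.1 (-0.28 to 0.042), CLDN4 (-0.022 to 0.080), HSD17B14 (-0.27 to 0.064), UAP1L1 (-0.063 to 0.031), RRAGD (-0.021 to 0.17), ALDOC (-0.013 to 0.21) and TMEM160 (-0.14 to 0.049). With 3 libraries a dose and about 20 to 30 M counts each, genes under 2 CPM rest on few counts, and a difference that did not pass is not shown to be absent.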

Other observations

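Genes outside the lists held many of the smallest p-values; they were picked out after their values were seen. PAPPA, a secreted protease that frees insulin-like growth factors by cutting their binding proteins, had 217, 214 and 212 CPM at 500 µg/mL, against 271, 274 and 274 CPM at 20 µg/mL (edgeR adjusted p 4.16e-08). Its adjusted p was 0.3 in the fit of the 18 set 4 libraries, the highest of 14 alternatives that began at 7.37e-24. The binding protein genes IGFBP4 and IGFBP5, which encode substrates of PAPPA, had log2 fold changes of -0.18 and -0.36 (edgeR adjusted p 0.00293 and 0.00228). PHLDB2, which anchors microtubules at the cell cortex, had 83.8, 79.1 and 82.4 CPM at 500 µg/mL, against 104, 109 and 106 CPM at 20 µg/mL (edgeR adjusted p 6.56e-08). CD44 had 153, 157 and 167 CPM at 500 µg/mL, against 195, 201 and 200.2 CPM at 20 µg/mL (edgeR adjusted p 6.89e-07). In all 3 genes the doses were apart, and the calls of PHLDB2 and CD44 held in all 14 alternative fits.

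The focal adhesion protein gene TNS4, the microfibril gene FBN2 and the actin cross-linker gene FLNA had log2 fold changes of -0.31, -0.31 and -0.19 (edgeR adjusted p 1.16e-06, 9.15e-07 and 0.000819). In the fit of the 18 set 4 libraries the calls of TNS4 and FBN2 were lost, with adjusted p of 0.211 and 0.468, the highest of 14 alternatives that began at 8.29e-16 and 3.53e-16. MGLL, which breaks down monoacylglycerols, THBD, the sialyltransferase gene ST6GAL2 and SLC26A2 had log2 fold changes of -0.36, -0.36, -0.29 and -0.28 (edgeR adjusted p 2.89e-06, 1.03e-05, 7.74e-06 and 2.89e-06). NPTX1, a neuronal pentraxin, averaged 304, 304 and 257 CPM at 20, 100 and 500 µg/mL, and NAMPT averaged 570.3, 546 and 485 CPM. HIF1A and EPAS1, the oxygen-regulated subunits of the hypoxia factors, had log2 fold changes of -0.20 and -0.11 (edgeR adjusted p 4.93e-05 and 0.0477). Among the rises, NQO2, a quinone reductase, and TRIM16, an NRF2-linked tripartite motif gene with the near copy TRIM16L, had log2 fold changes of 0.16 and 0.13 (edgeR adjusted p 0.0415 and 0.0194). In the NRF2 list, chosen before these genes were picked, 2 of 20 rose, and NQO1 and SLC7A11 did not pass. The calls of IGFBP4, IGFBP5, FLNA, HIF1A, EPAS1, NQO2 and TRIM16 were not followed over the alternative fits.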
